A study of Mus musculus with 4 samples.

Results

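The genes described here encode the chaperone and the enzymes that fold, hydroxylate and cross-link collagen. Members were taken as the Affymetrix probe sets annotated to exactly 1 of 10 listed mouse symbols: Serpinh1, P4ha1, P4ha2, P4ha3, Plod1, Plod2, Plod3, Lox, Loxl1 and Loxl2. This gave 16 of the 45037 probe sets tested and 9 of the 18193 genes. Both probe sets that read Loxl2 were annotated to a further gene, Gm21451, as well, so Loxl2 was not analysed here. No filter on low values was used, and all 9 genes were tested.

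The cells were sorted from the bone marrow of adult NOD/SCID recipient mice (strain NOD.CB17-Prkdc scid/J), which lack mature B and T cells because of the scid mutation. Every sample held cells positive for the integrin CD51 and negative for CD45 (blood cells), CD31 (endothelium), Sca1 and lineage antigens, which the submitters call osteoblasts. They came from the trabecular bone area (2 arrays) or from the long bone area (2 arrays), with no treatment or genotype that differs between the areas in the labels. The replicates are called biological, but the labels do not say whether they are separate or pooled mice, what a recipient had received, or the age beyond adult, so p-values measure only the spread between these samples.

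Collagen chains are made in the endoplasmic reticulum. Prolyl 4-hydroxylases modify prolines there so that the triple helix is stable at body temperature, and lysyl hydroxylases modify lysines that later carry sugars or become cross-links. Serpinh1 (Hsp47) binds the folded helix until it leaves for the Golgi, and lysyl oxidases, which are copper enzymes, oxidise lysines outside the cell so that fibrils become cross-linked. Both kinds of hydroxylase need oxygen, iron, alpha-ketoglutarate and ascorbate. Osteoblasts, chondrocytes and fibroblasts rely on this machinery because they secrete large amounts of fibrillar collagen.

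Promoter sequences of 6 of the 10 listed genes were taken from RefSeq (build GRCm38.p6). The 250 bases before the start of the chaperone gene and of P4ha2, both lower in the trabecular area, and of Plod1 and Plod3, both higher there, are shown so that genes on either side of the comparison can be set beside each other. Capitals mark each match to ACGTG on either strand, a form of the core of the element that hypoxia-inducible factors bind. The form GCGTG was not searched, and the letters of Plod1, which have no capitals, hold it. All are written in the direction of transcription.
Serpinh1, chr7:99353240-99353489, minus strand: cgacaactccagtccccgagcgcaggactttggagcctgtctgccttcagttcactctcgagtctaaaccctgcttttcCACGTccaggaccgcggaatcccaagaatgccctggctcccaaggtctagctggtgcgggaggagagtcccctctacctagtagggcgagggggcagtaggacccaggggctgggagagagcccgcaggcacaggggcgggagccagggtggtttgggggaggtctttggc
P4ha2, chr11:54100674-54100923, plus strand: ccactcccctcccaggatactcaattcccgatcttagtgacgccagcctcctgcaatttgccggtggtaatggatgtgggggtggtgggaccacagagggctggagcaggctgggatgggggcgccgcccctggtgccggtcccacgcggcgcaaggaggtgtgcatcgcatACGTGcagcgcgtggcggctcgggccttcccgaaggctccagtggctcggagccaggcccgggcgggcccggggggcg
Plod1, chr4:147936777-147937026, minus strand: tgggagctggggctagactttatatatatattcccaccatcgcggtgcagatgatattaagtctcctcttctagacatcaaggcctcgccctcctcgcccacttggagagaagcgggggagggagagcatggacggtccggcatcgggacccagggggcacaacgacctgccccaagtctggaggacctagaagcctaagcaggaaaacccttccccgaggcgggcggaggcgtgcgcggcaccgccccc
Plod3, chr5:136986769-136987018, plus strand: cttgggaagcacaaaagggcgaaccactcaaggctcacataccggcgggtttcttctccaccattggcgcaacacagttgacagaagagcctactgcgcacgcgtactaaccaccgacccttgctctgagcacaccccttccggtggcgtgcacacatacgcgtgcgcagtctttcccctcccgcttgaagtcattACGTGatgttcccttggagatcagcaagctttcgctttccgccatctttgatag
ACGTG was found in 4 of the 6 member promoters (Serpinh1, P4ha1, P4ha2 and Plod3), against 16.6% of 32841 promoters of the same length, and not in those of P4ha3 and Plod1. The match of Serpinh1 began 171 bases before the start, that of P4ha2 78 bases and that of Plod3 54 bases before it. GGGCGG, the letters of a GC box, was found in 5 of 6 member promoters (32.7% of all), in all but that of Plod3. CCAAT was found only in that of Plod3 (33.9% of all) and TATAAA only in that of Plod1 (12.4%). GAANNTTC, a core of heat shock elements, was found in none of the 6 (6.7% of all). All 5 motifs were searched on both strands, and none of the matches was tested as a binding site. Genes with and without ACGTG lay on both sides of the comparison.

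For each probe set the deposited log2 values had been centred on their 4-array median. They carry differences between arrays and no level, and the 2 middle values of each probe set lie equally far above and below 0 by construction. A gene was given the mean of its probe sets, so its own 4 values need not be centred. Long bone array 2 stood apart, with 2493 probe sets 2-fold or more away from the median, where the other arrays had 383 to 848. For Gapdh the 5' control probe set minus the 3' one, which falls with RNA degradation, came to -1.16 there, while the other 3 arrays had values of -0.09 to 0.31. The same measure for beta-actin was -0.04 on long bone array 2, within the -0.07 to 0.44 of the other arrays, so the controls differ on this. The number of arrays limits the precision of every value below.

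Of the 9 measured genes 7 were lower in the trabecular area (45.4% of all genes) and 2 were higher (54.6% of all genes). The median log2 difference (trabecular minus long bone) was -0.29, against 0.03 over all genes. It was -0.06 without long bone array 2, whereas leaving out long bone array 1 gave -0.53. Over the 4 members with probe sets read as a log2 level of 8 and above, on those probe sets, it was 0.22. These were Serpinh1, P4ha1, Plod1 and Plod3, which differed by -1.37, -0.29, 0.25 and 0.33 over all their probe sets. That median thus covers fewer genes and is not a like comparison. The chaperone Serpinh1 and the hydroxylases Plod2 and P4ha2 differed by at least 2-fold with no overlap between the areas. A difference of this size and direction was seen in 3 of 9 members and in 1.17% of all genes. No member passed the test: with limma, 0 of 18193 genes had a Benjamini-Hochberg adjusted p under 0.05 (0% of genes; 40 genes with a trend in the prior variance and 1 with ordinary t statistics). At an unadjusted p under 0.05 the same 3 members were lower (4.62% of all genes) and 0 members were higher (10.8% of all genes). No overlap by itself held for 4 members that were lower (21.4% of all genes) and 2 that were higher (29.9% of all genes), so the latter share was close to the background. These were bulk samples, in which fewer cells of a type and less RNA per cell cannot be told apart.

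**Figure D1:**
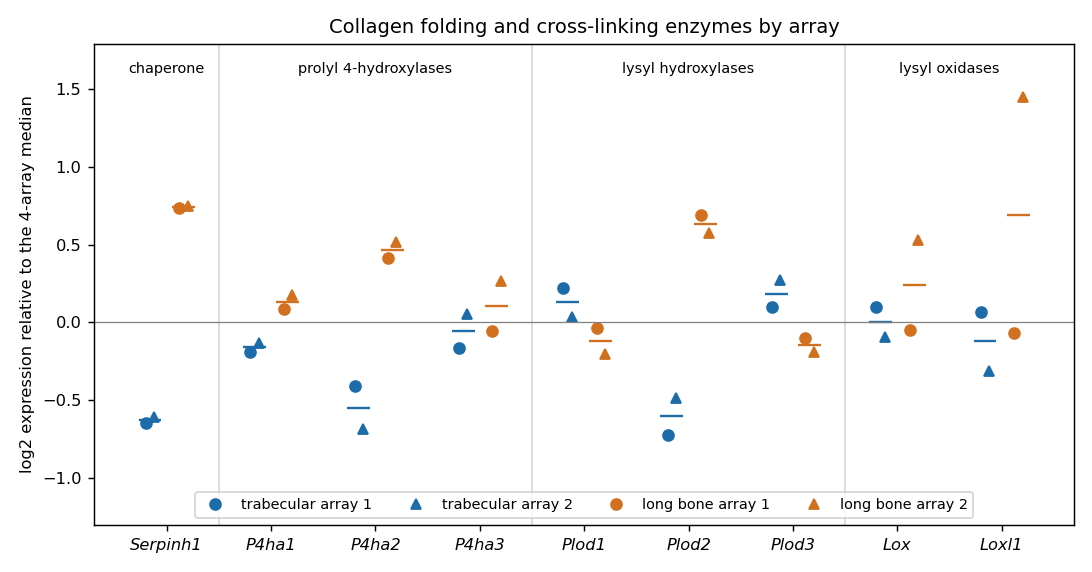
Log2 expression of the 9 measured genes on each array, relative to the 4-array median of each probe set and averaged over the probe sets of a gene. Circles are array 1 and triangles array 2 of each area, and short lines are the means of 2 arrays. Serpinh1, P4ha2 and Plod2 are separated widely between the areas, while Loxl1 is high on long bone array 2 alone, at 1.45.

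Serpinh1 had values of -0.64 and -0.61 on trabecular arrays 1 and 2, and of 0.74 and 0.74 on long bone arrays 1 and 2. Both trabecular arrays lay below both long bone arrays, and the arrays of an area nearly coincided. The log2 difference was -1.37 (SE 0.12, 95% interval -1.68 to -1.05), or 2.58-fold lower, with an adjusted p of 0.141 in limma. It was the gene with the 20th lowest p of 18193, and 144 genes had a difference at least as far below 0. Its 2 probe sets went the same way. On 1450843_a_at the values were -0.72 and -0.70 in the trabecular area and 0.96 and 0.70 in the long bone area, a difference of -1.54 (SE 0.15). On 1456733_x_at they were -0.57 and -0.52 against 0.52 and 0.79, a difference of -1.20 (SE 0.15). The close match of the arrays in the gene mean is therefore an average over probe sets that each spread more, with an SD of 0.18 and 0.19 in the long bone area. The suffixes of both names mark probes that can match more than 1 transcript. The difference stayed between -1.38 and -1.20 over the 14 alternatives tried, but several of these could not move it. Those that alter only the block or the variance leave it unchanged by construction, and the median of 2 probe sets equals their mean. Leaving out shared-probe sets did not change it either, since Serpinh1 had no other probe sets and kept both. With a trend in the prior variance limma gave an adjusted p of 0.0441. In limma it was 0.145 with a robust prior variance and 0.275 with the replicate number as a block. With 1 array left out the difference lay between -1.38 and -1.35.

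The prolyl 4-hydroxylase alpha subunits, which carry the active site, were all lower on average but to very different extents. P4ha2 had values of -0.41 and -0.68 in the trabecular area and of 0.41 and 0.52 in the long bone area. The areas did not overlap, and the log2 difference was -1.01 (SE 0.15, interval -1.41 to -0.61), or 2.02-fold lower, with an adjusted p of 0.234 in limma. P4ha2 rests on 1 probe set. P4ha1, the alpha subunit made by most cells, had values of -0.19 and -0.13 against 0.09 and 0.18, a log2 difference of -0.29 (SE 0.12, adjusted p = 0.348 in limma). The areas did not overlap, but the interval of -0.62 to 0.03 included 0.

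The 2 probe sets of P4ha1 disagreed. On 1452094_at the trabecular arrays were at -0.45 and -0.28 and the long bone arrays at 0.28 and 0.37, a difference of -0.69 (SE 0.14). On 1426519_at they were at 0.07 and 0.02 against -0.10 and -0.02, a difference of 0.10 (SE 0.13, interval -0.24 to 0.45). The deposited numbers keep the rounding step of their size before centring, from which a coarse log2 level can be read. It was 8 and above (called bright here) for 1426519_at and 4 to 8 for 1452094_at, so over bright probe sets alone P4ha1 turned to 0.10. P4ha3, the remaining alpha subunit, had values of -0.17 and 0.05 against -0.05 and 0.27, and the areas overlapped (difference -0.16, SE 0.17, on 1 probe set). Its difference was -0.0039 without long bone array 2, -0.33 without long bone array 1, -0.06 without trabecular array 1 and -0.27 without trabecular array 2.

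The lysyl hydroxylases lay on both sides of 0. Plod2 (LH2), which acts on the lysines of the collagen ends from which pyridinoline cross-links form, had values of -0.72 and -0.48 in the trabecular area and of 0.69 and 0.58 in the long bone area. All arrays of one area lay below those of the other, and the log2 difference was -1.23 (SE 0.15, interval -1.62 to -0.85), or 2.35-fold lower, with an adjusted p of 0.195 in limma. Both probe sets went the same way. On 1416687_at the values were -1.05 and -0.63 against 0.63 and 0.82, a difference of -1.57 (SE 0.20). On 1416686_at they were -0.39 and -0.33 against 0.74 and 0.33, a difference of -0.90 (SE 0.19).

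Plod1 (LH1), which acts on lysines within the helix, had values of 0.22 and 0.03 in the trabecular area and of -0.03 and -0.20 in the long bone area. The areas did not overlap, with a log2 difference of 0.25 (SE 0.14, interval -0.14 to 0.63, adjusted p = 0.452 in limma). Its probe set 1416289_at, read as 8 and above, was at 0.39 and 0.06 against -0.06 and -0.35 (difference 0.43, SE 0.19), and 1445893_at varied little, from -0.05 to 0.05 (difference 0.06, SE 0.12). Without trabecular array 1 the difference of the gene was 0.15, and it was 0.16 without long bone array 2. Plod3 (LH3), which also adds sugars to hydroxylysine, had values of 0.10 and 0.27 against -0.10 and -0.19, again with no overlap. Its log2 difference was 0.33 (SE 0.13, interval -0.03 to 0.68, adjusted p = 0.343 in limma). Neither of these differences passed the test, and both are of a size that many genes reached, 4896 genes for Plod1 and 3902 for Plod3.

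Within an array, the gap between 2 members of a family shows whether they changed unequally. The value of Plod2 minus that of Plod3 was -0.82 and -0.76 on the trabecular arrays and 0.79 and 0.76 on the long bone arrays, a difference between the areas of -1.56. Plod1 minus Plod2 was 0.95 and 0.52 against -0.72 and -0.78, a difference of 1.48. Plod1 minus Plod3 overlapped between the areas, at 0.13 and -0.24 against 0.06 and -0.01. P4ha1 minus P4ha2 was 0.22 and 0.55 against -0.32 and -0.34, a difference of 0.72, with P4ha1 averaged over 2 probe sets that disagreed. P4ha1 minus P4ha3 overlapped, at -0.02 and -0.18 against 0.14 and -0.09. Of the 7 pairs compared, P4ha2 minus P4ha3 (-0.85) and Lox minus Loxl1 (0.57) also did not overlap. The pairs of hydroxylases share genes, so these gaps are not separate results. An exact permutation test of 2 against 2 arrays (two-sided) cannot go below p = 0.333, so the gaps are given as descriptions.

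**Figure D2:**
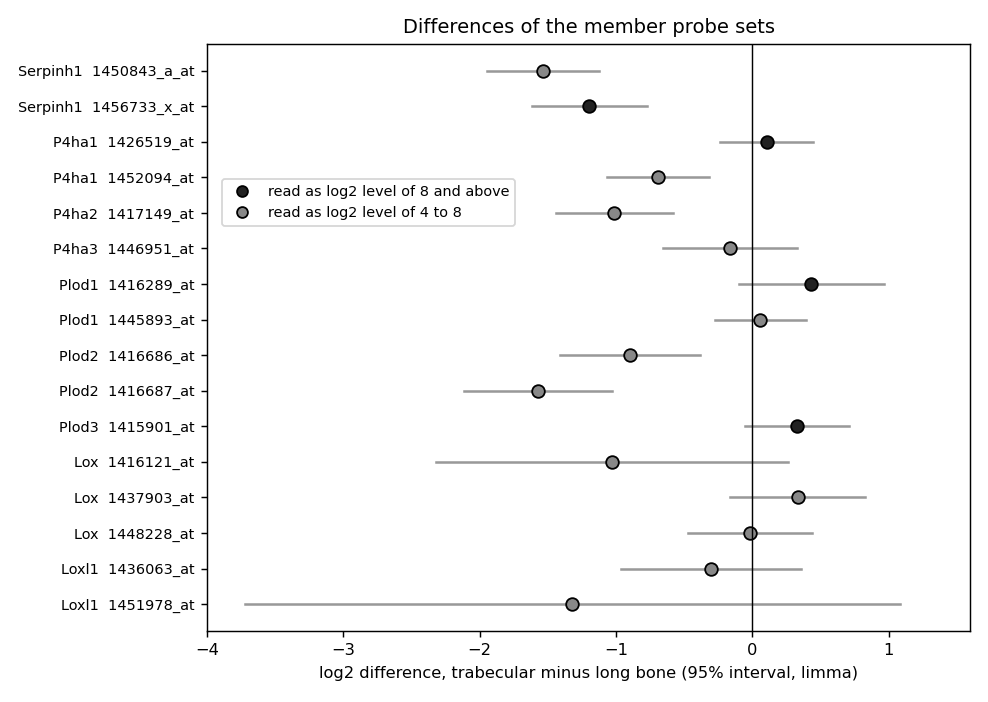
Log2 difference between the areas for each of the 16 member probe sets, with the 95% interval of the moderated limma fit. Fill marks the level band read from the number steps. The intervals of 6 probe sets lie wholly below 0 (7.35% of all probe sets), those of Serpinh1, P4ha2 and Plod2 and 1 of P4ha1, and the widest is that of Loxl1 on 1451978_at.

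Both lysyl oxidases were highest on long bone array 2. Loxl1, known for its part in elastic fibres, had values of 0.07 and -0.31 in the trabecular area and of -0.07 and 1.45 in the long bone area. The areas overlapped, since long bone array 1 lay between the trabecular arrays. The log2 difference was -0.81 (SE 0.53, interval -2.23 to 0.60, adjusted p = 0.495 in limma). Without long bone array 2 it was -0.06. Leaving out long bone array 1 gave -1.57. Its probe set 1451978_at was at 2.31 on long bone array 2, the other arrays lying from -0.55 to 0.11. On 1436063_at that array was at 0.58, the other arrays lying from -0.07 to 0.02. Both probe sets therefore put that array highest.

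Lox, the oxidase best known for cross-linking collagen fibrils, had values of 0.10 and -0.10 against -0.05 and 0.53, with overlap and a log2 difference of -0.24 (SE 0.23, interval -0.86 to 0.38, adjusted p = 0.646 in limma). Its 3 probe sets disagreed. On 1416121_at the values were -0.14 and -0.33 against 0.14 and 1.45 (difference -1.03, SE 0.47). On 1437903_at they were 0.43 and 0.05 against -0.14 and -0.05 (difference 0.33, SE 0.18). On 1448228_at they were 0.0047 and -0.0047 in the trabecular area and -0.15 and 0.18 in the long bone area, a difference of -0.02 (SE 0.17). The first puts long bone array 2 far above the rest, and the second puts trabecular array 1 highest. The gene's difference turned to 0.05 without long bone array 2 and was -0.53 without long bone array 1, -0.14 without trabecular array 2 and -0.02 with the median of the probe sets.

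Markers of other stroma were high on the same array. Reticular stroma markers had a median of 1.69 on long bone array 2, against 0.10 and -0.58 on trabecular arrays 1 and 2 and -0.13 on long bone array 1. All 8 were lower on average in the trabecular area, 7 of them with overlap, and their median difference of -1.15 was -0.17 without long bone array 2. Smooth muscle and pericyte markers had a median of 0.67 on that array, against -0.17 to 0.02 elsewhere (7 of 8 lower, median difference -0.57, and -0.18 without that array). Their part in the values of Lox and Loxl1 was not tested.

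Serpinh1, Plod2 and P4ha2, the members with the largest differences, differed in the same direction as markers of matrix-secreting cells. Plod1 and Plod3 differed in the other direction. Of 12 chondrocyte markers all 12 were lower without overlap between the areas (21.4% of all genes). Their medians were -1.31 and -1.21 on the trabecular arrays and 1.54 and 1.22 on the long bone arrays (median difference -2.90). Of 9 listed markers of osteoblasts, the cells the sort was meant to yield, 6 were measured, without Bglap, Runx2 and Spp1. All 6 were lower without overlap (21.4% of all genes), with medians of -0.21 and -0.35 against 0.20 and 0.78 (median difference -0.95). Tendon and fibroblast markers were lower in 9 of 10 cases, with medians of -0.08 and -0.28 against 0.09 and 0.90. Their median difference of -0.82 was -0.25 without long bone array 2. Leaving out long bone array 1 gave -1.40. The part of these cell types in the differences of the enzymes was not tested, and centring leaves no level by which a marker could be called absent.

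Markers of blood and vessel cells had medians nearer to 0 than those of the matrix-secreting cells. Median differences were 0.07 for neutrophil markers (2 of 10 lower), -0.26 for macrophage markers (6 of 9 lower), 0.04 for endothelial markers (3 of 8 lower), -0.10 for erythroid markers (4 of 6 measured lower) and -0.09 for B cell markers (5 of 6 measured lower). The erythroid and B cell medians turned to 0.20 and 0.12 without long bone array 2, and the neutrophil median lay between 0.02 and 0.33 over the left-out arrays. Within the neutrophil list Mmp9 (1.52, SE 0.44) and Mmp8 (1.12, SE 0.29), which encode secreted proteases, were over 2-fold higher in the trabecular area without overlap. At least 2-fold higher without overlap were 266 of 18193 genes. Mmp9 fell to 0.91 without long bone array 2, and Mmp8 to 0.73 without trabecular array 1. The 2 lower neutrophil markers were Elane (-0.23) and S100a8 (-0.02). Of the antigens used in the sort, Itgav, which encodes CD51, differed by -0.13, Ptprc (CD45) by -0.34 and Pecam1 (CD31) by -0.02. Ptprc turned to 0.20 without long bone array 1, and Pecam1 to 0.046 without trabecular array 2 and to 0.043 when long bone array 1 was left out. Ly6a (Sca1) was not analysed here.

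**Figure D3:**
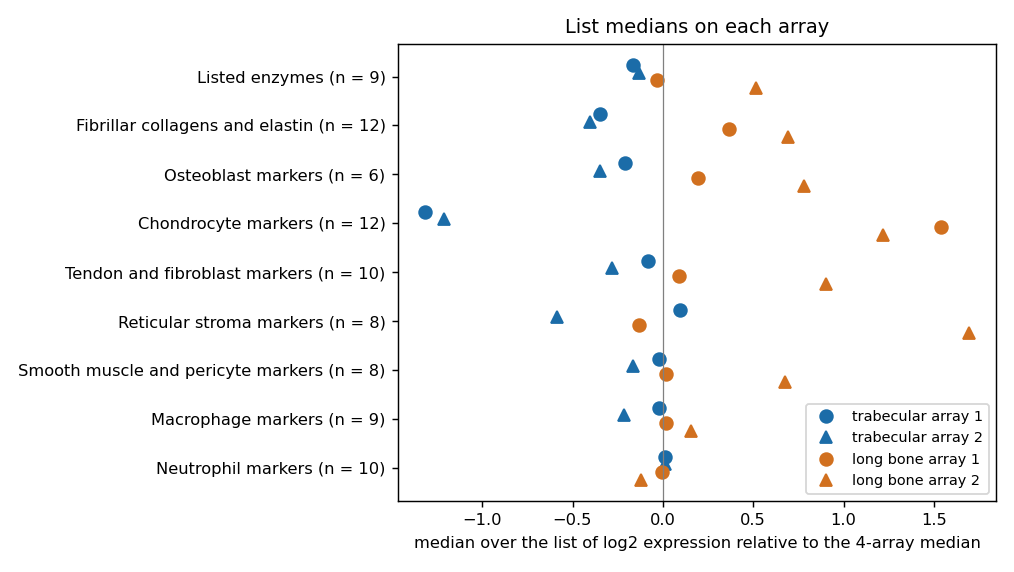
Median of log2 expression relative to the 4-array median over the genes of each list, on each array. Circles are array 1 and triangles array 2 of each area. Chondrocyte markers separate the areas by the widest gap of the lists shown, and reticular stroma markers reach 1.69 on long bone array 2 alone.

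Other genes of collagen maturation, 28 listed and 25 measured, lay on both sides of 0, as the listed enzymes did. In the trabecular area 19 of them were lower (45.4% of all genes) and 6 higher (54.6% of all genes), and the median log2 difference was -0.23. At an unadjusted p under 0.05 there were 8 lower (4.62% of all genes) and 2 higher (10.8% of all genes), and 0 passed the adjusted threshold. Over the bright probe sets alone, a setting that need not hold the same genes, the median was 0.04. Pcolce and its relative Pcolce2, which enhance the removal of the procollagen end piece, differed most, by -1.67 (SE 0.61) and -1.65 (SE 0.33). Pcolce was at -0.31 and -0.61 in the trabecular area and at 0.31 and 2.09 in the long bone area. Its difference was -0.78 without long bone array 2. Leaving out long bone array 1 gave -2.56. Pcolce2 was at -0.56 and -0.71 against 1.48 and 0.56, so long bone array 1 was the higher one for it.

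The complex of the prolyl 3-hydroxylase had members on both sides of 0, and none passed the test. Crtap, its helper subunit, differed by -0.82 (SE 0.27), and by -0.47 without long bone array 2. P3h1, its enzyme, differed by -0.23 (SE 0.14), and by -0.13 without trabecular array 1. Ppib, a prolyl isomerase of the same complex, had a difference of 0.07 (SE 0.28) that turned to -0.16 without trabecular array 2 and to -0.23 without long bone array 1. Both P3h1 and Ppib were picked for this description after their values were seen.

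Genes higher in the trabecular area included P4hb, the protein disulfide isomerase that is the partner of all 3 P4ha subunits. P4hb was at 0.02 and 0.27 in the trabecular area and at -0.02 and -0.75 in the long bone area, a difference of 0.53 (SE 0.28, adjusted p = 0.425 in limma). It was 0.16 without long bone array 2. Leaving out long bone array 1 gave 0.89. The catalytic subunit P4ha2 thus differed in the opposite direction from its partner, on which many other proteins rely as well. Sec23a, a coat protein of the vesicles that carry procollagen out of the endoplasmic reticulum, differed by 0.61 (SE 0.21), and by 0.40 without long bone array 2. Tmem38b, an ion channel of the endoplasmic reticulum, differed by 0.39 (SE 0.14).

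The fibrillar collagens and elastin, only a part of the substrates of these enzymes, all lay on one side. All 12 fibrillar collagen and elastin genes were lower in the trabecular area without overlap (21.4% of all genes). Their median log2 difference was -1.21, and 8 were lower at an unadjusted p under 0.05 (4.62% of all genes). The median was -0.35 and -0.40 on the trabecular arrays and 0.36 and 0.69 on the long bone arrays. Col11a1, a minor collagen of cartilage fibrils, differed by -4.07, Col2a1, their main collagen, by -3.77, and Col1a2, a chain of the main bone collagen, by -2.46. These 3 are the lowest of the list. The interval of Col1a2, -3.91 to -1.02, covers the whole interval of Serpinh1, and Eln (-0.10), Col5a1 (-0.13) and Col5a3 (-0.14) were nearest to 0. Eln encodes elastin, and the last 2 are chains of a minor fibrillar collagen. They were picked after their values were seen. No test of the difference between the lists was made. Col1a1 is also in the osteoblast list and Col2a1 in the chondrocyte list, so these lists are not separate.

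**Figure D4:**
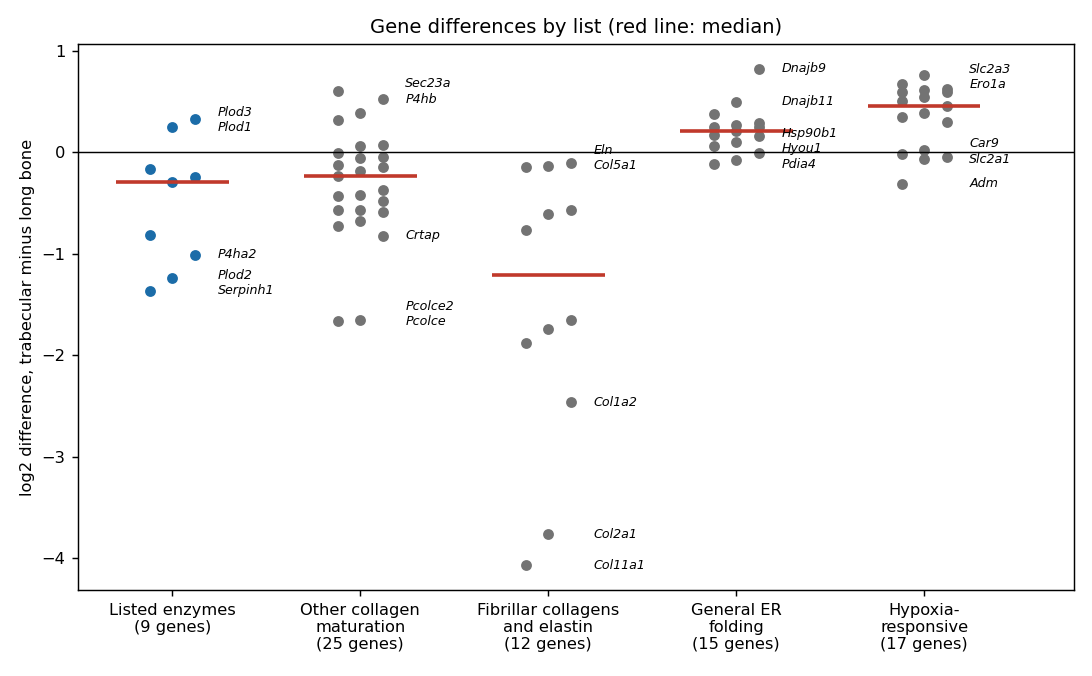
Log2 difference between the areas, trabecular minus long bone, for each measured gene of 5 lists, with the genes at the ends of each list named and the list median as a red line. Fibrillar collagens and elastin lie wholly below 0, the listed enzymes lie on both sides, and general folding genes and hypoxia-responsive genes lie mostly above 0.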

How the data were processed

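RNA of the sorted cells was amplified, biotin-labelled and put on Affymetrix arrays, per the labels' protocols. A human array is named in the design text, yet the probe set names are those of a mouse array, whose annotation was used. The deposited log2 values were made with RMA, per the submitters' processing notes, with no version given, and were centred on the median of the 4 arrays (0 to within rounding for all 45101 probe sets). The log base, the centring tool and any filter were not given in the sources used here. RMA itself gives log2. Folds of dim genes are compressed on this scale.

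Control probe sets (64) were left out. Of the rest, 34945 had 1 gene, 932 several and 9160 none, and the first gave 18193 genes by averaging. Matching gene IDs to RefSeq covered 34741 probe sets and changed 0 symbols. Groups came from the titles. The test was limma 3.58.1, run in R 4.3.3 (lmFit, eBayes, two-sided, Benjamini-Hochberg over the whole table), without the replicate number as a block. The fit and the reading of level bands were each tested on simulated data with known answers. Level bands were read from the steps of 32-bit numbers. They gave 14971 probe sets at 8 and above, and such a reading can be wrong for a probe set that crosses a band.

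The members and the gene lists were chosen with earlier results of these data known. Named genes are all members, the sorting antigens, and up to 3 genes per list and direction with the largest differences. P3h1, Ppib, Eln, Col5a1 and Col5a3 were added after their values were seen. Of the listed genes, 12 were not analysed here. Alternatives were the replicate block, each array left out, quantile and median scaling, other prior variances, other probe set summaries and bright probe sets alone. The trend in the prior variance used the mean of the centred values, as no level was at hand.

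Between any 2 arrays 65 to 107 probe sets held identical values, so no array was a copy of another.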

Additional observations from a re-analysis of the deposited data

How the results depend on the processing

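The directions of Serpinh1, P4ha2, P4ha3, Plod1, Plod2, Plod3 and Loxl1 held under every alternative that gave a value (P4ha2, P4ha3, Plod2 and Loxl1 had none over bright probe sets). Those of P4ha1 (0.10 over bright probe sets alone) and Lox (0.049 without long bone array 2) did not. Alternatives that alter only the block or the variance keep the difference by construction, so they could not turn a direction. For P4ha3 (-0.0039) and Loxl1 (-0.056) the direction held in sign only, with values close to 0 without long bone array 2. The probe set 1448228_at of Lox turned to 0.15 without that array and to 0.023 with quantile normalization. The cause of these turns was not tested. Without 1 array, the number of members past the adjusted threshold ranged from 0 to 4, and the 4 were reached without long bone array 1 (Serpinh1, P4ha2, Plod2 and Loxl1). In that fit the spread comes from the trabecular pair alone and the lone array is assumed to vary likewise.

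Over the left-out arrays, the genes called ranged from 0 to 1603 (1603 without long bone array 1), those at an unadjusted p under 0.05 from 1015 to 5458, those lower by 2-fold without overlap from 165 to 479 and those higher from 209 to 887. Members at an unadjusted p under 0.05 ranged from 3 to 5, and members lower by 2-fold without overlap from 2 to 4. The probe sets at an unadjusted p under 0.05 ranged from 2673 to 12789, those lower by 2-fold without overlap from 1212 to 1889, those higher from 625 to 2857, and the member probe sets lower by 2-fold without overlap from 3 to 6. Median differences ranged from -0.53 to -0.056 for the members, -0.33 to -0.19 for other collagen maturation, -1.41 to -0.83 for fibrillar collagens and elastin, 0.087 to 0.36 for general folding and 0.33 to 0.54 for hypoxia genes. For markers they ranged from -1.28 to -0.85 (osteoblast), -2.99 to -2.58 (chondrocyte), -1.40 to -0.25 (tendon and fibroblast), -1.95 to -0.17 (reticular stroma), -0.80 to -0.18 (smooth muscle and pericyte), 0.019 to 0.33 (neutrophil), -0.41 to -0.14 (macrophage), -0.018 to 0.072 (endothelial), -0.40 to 0.20 (erythroid) and -0.25 to 0.12 (B cell). Of the other named genes, the difference ranged from -0.23 to 0.37 for Ppib, -0.67 to 0.051 for Adm, -0.090 to 0.046 for Pecam1 and -0.88 to 0.20 for Ptprc.

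With a trend in the prior variance 40 genes and 281 probe sets were called, 1 and 2 of them members. With ordinary t statistics 1 gene and 1 probe set were called, and 1763 genes and 4831 probe sets were at an unadjusted p under 0.05. Bright probe sets alone held 4 members (Serpinh1, P4ha1, Plod1 and Plod3), 1 of them at an unadjusted p under 0.05 and 1 lower by 2-fold without overlap. They gave 1500 genes at an unadjusted p under 0.05 and 127 lower by 2-fold without overlap, and medians of 0.22 for the members, 0.041 for other collagen maturation, 0.60 for hypoxia genes, -1.75 for osteoblast, -1.41 for chondrocyte, -1.69 for tendon and fibroblast, -0.10 for endothelial, 0.23 for neutrophil, -0.048 for macrophage, -0.64 for erythroid and -0.45 for B cell markers. Fewer genes enter that setting by construction. In a further setting, probe sets whose probes are shared were left out for genes that had others. Genes with only such probe sets, Serpinh1 among them, kept theirs. There 1 gene was called. The medians were -0.35 for other collagen maturation, -0.84 for fibrillar collagens and elastin, 0.60 for hypoxia genes and -2.35 for chondrocyte markers. Quantile normalization gave -2.63 for chondrocyte and 0.14 for neutrophil markers.

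With the replicate number as a block, no member was called, and the adjusted p was 0.275 for Serpinh1, 0.294 for Plod2 and above that for P4ha2. The deviations of same-numbered arrays correlated at -0.18, which cannot show whether the numbers pair the samples. The crossed pairing, added after seeing this, called 0 genes and 0 probe sets.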

Other observations

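General folding genes of the endoplasmic reticulum mostly lay on the other side of 0 from the collagen chaperone. Of the 15 measured, 12 had a positive (54.6% of all genes) and 3 a negative difference (45.4% of all genes), trabecular minus long bone. The median log2 difference was 0.21. There were 7 higher without overlap (29.9% of all genes) and 2 higher at an unadjusted p under 0.05 (10.8% of all genes), and 0 passed the adjusted threshold in limma. Dnajb9, a co-chaperone induced by the unfolded protein response, was at 0.55 and 0.34 in the trabecular area and at -0.34 and -0.41 in the long bone area (difference 0.83, SE 0.14). Dnajb11, another co-chaperone, differed by 0.50 (SE 0.18), and by 0.32 without trabecular array 2.

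P4ha1, P4ha2, Plod2 and Lox are known to be induced by low oxygen. A hypoxia list that holds none of them had 17 measured genes. Of these 13 were higher among the trabecular arrays (54.6% of all genes) and 4 lower (45.4% of all genes), and the median difference was 0.46. There were 6 higher at an unadjusted p under 0.05 (10.8% of all genes) and 0 past the adjusted threshold. The glucose transporter Slc2a3 differed by 0.76 (SE 0.25, and 0.49 without trabecular array 1), the glycolytic enzyme Aldoa by 0.63 (SE 0.17), and the oxidase Ero1a, which forms disulfide bonds, by 0.67 (SE 0.38). Ero1a was at 0.14 without long bone array 2 and at 1.21 without long bone array 1. Adm, a vasodilator peptide gene, differed by -0.31 (SE 0.29), with a sign that turned without long bone array 2 (0.05). Slc2a1 (-0.06, SE 0.42) and Car9 (-0.05, SE 0.33) were also lower, with overlap. They turned to 0.37 and 0.21 without that array. The part of low oxygen in the values of the enzymes was not tested.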
